A study of Homo sapiens with 38 samples.

Results

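The genes described are 10 immediate early transcription factors of the AP-1, EGR and NR4A groups: FOS, FOSB, FOSL1, JUN and JUNB, which encode subunits of AP-1, the related bZIP factor gene ATF3, the zinc finger factor gene EGR1, and the orphan nuclear receptor genes NR4A1, NR4A2 and NR4A3. They were taken by symbol from the array annotation, which gives 10 of the 19775 genes measured and 23 probe sets. Of these 10 genes, 7 passed the filter on dim genes (a log2 value above 5 on at least 2 arrays of experiment 1) and were tested among 8511 genes. FOSB, NR4A1 and NR4A3 were not bright enough at their brightest probe set. FOS passed through 4 arrays alone, those of confluent vector and confluent shp130 cells, so a higher FOS level in these groups is partly set by the filter. Every count of called genes that includes FOS in a comparison with these groups carries the same limit.

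Expression was measured on Affymetrix arrays in IMR90 cells, a normal human fetal lung fibroblast line, as GCRMA log2 values. In experiment 1, cells carried a short hairpin RNA, called shRB, shp107 or shp130 after the pocket protein it targets, or the vector MLP alone. Each of these 4 kinds of cell was ras-senescent, confluent, kept in 0.1% serum or growing in 10% serum. Senescent and confluent cells were also in 10% serum, so confluent and low-serum cells differ in serum as well as in density. Experiment 2 holds shRB and vector cells in senescence, with vector cells in growth, all in 10% serum. Each of the 19 groups has 2 arrays, 38 in all, and nothing in the labels says whether the 2 come from separate cultures, so every p-value measures the spread between arrays only. The labels name neither the ras allele nor the hairpin sequences. All senescent groups were ras-senescent and no other group is labelled with ras, so ras and senescence cannot be told apart.

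The array medians lay between 3.27 and 3.41. All 7 fibroblast markers were among the genes tested, with array means of 10.07 to 11.68, and no blood marker was. Of the other markers tested, the endothelial list had 1 of 5 (TEK, up to 9.52), the epithelial list 1 of 7 (KRT18, up to 8.83) and the smooth muscle list 1 of 3 (SMTN, up to 8.18), and their part in the results was not tested. RB1 was called lower with shRB in all 4 states and in experiment 2, and RBL2, the p130 gene, was called lower with shp130 in all 4 states. RBL1, the p107 gene, was dim and was not called lower with shp107 in any state, with a log2 value of 3.22 in confluent shp107 cells and 3.70 in confluent vector cells (adjusted p = 0.654), so the arrays do not check the shp107 label. Of the 19 pairs of replicate arrays, the confluent vector pair lay farthest apart (SD of the gene-by-gene differences 0.79), and the other pairs had 0.18 to 0.66. Results that rest on those arrays are given below with either left out where that ended a call. Where it added calls among the 7 tested genes, only the range of the counts is given, in the closing section. The count of AP-1 and EGR partner genes was not repeated this way.

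Immediate early genes are transcribed within minutes of a stimulus from factors already present in the cell, and their transcripts are short-lived. Serum, growth factors, stress and RAS signalling through ERK and JNK kinases reach them through SRF with its ternary complex partners and through CREB-family factors. FOS and JUN proteins pair to form AP-1, which drives matrix metalloproteinase and cytokine genes in fibroblasts, and FOSL1 is an ERK-responsive AP-1 subunit that persists in proliferating cells. JUNB can restrain JUN-driven proliferation, ATF3 is induced by stress and often represses its targets, EGR1 binds GC-rich promoter sites, and NR4A receptors act without a known ligand.

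RefSeq promoters on GRCh38.p14 were matched for 8 of the 10 genes, all but FOSL1 and NR4A2. The 250 bases before the start are shown for FOS (chr14:75278578-75278827, plus strand) and EGR1 (chr5:138465229-138465478, plus strand), which rose with confluence, and for JUN (chr1:58784048-58784297, minus strand) and JUNB (chr19:12791236-12791485, plus strand), which rose in senescence. Capitals mark matches, on either strand, to the short CRE motif TGACG, the EGR site GCGNGGGCG and the CArG box bound by SRF.
FOS: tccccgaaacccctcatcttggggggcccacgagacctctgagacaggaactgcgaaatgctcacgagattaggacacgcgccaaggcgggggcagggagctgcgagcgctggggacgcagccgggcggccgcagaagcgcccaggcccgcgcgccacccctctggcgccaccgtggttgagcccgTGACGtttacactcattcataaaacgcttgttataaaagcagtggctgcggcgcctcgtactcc
EGR1: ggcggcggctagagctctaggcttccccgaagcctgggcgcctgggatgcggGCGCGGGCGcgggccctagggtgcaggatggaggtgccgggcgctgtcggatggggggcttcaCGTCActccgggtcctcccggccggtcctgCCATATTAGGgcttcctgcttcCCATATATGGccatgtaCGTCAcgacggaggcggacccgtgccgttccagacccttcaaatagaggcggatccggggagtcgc
JUN: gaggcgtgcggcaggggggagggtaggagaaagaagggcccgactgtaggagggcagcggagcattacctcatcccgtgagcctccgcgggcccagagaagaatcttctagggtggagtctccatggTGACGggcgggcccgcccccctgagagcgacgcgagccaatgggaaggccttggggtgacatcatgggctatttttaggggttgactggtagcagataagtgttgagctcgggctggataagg
JUNB: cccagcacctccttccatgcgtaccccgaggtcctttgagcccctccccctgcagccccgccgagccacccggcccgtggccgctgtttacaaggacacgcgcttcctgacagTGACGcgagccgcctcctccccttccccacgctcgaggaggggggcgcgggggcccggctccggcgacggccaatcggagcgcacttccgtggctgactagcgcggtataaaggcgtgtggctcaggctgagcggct
All 4 sequences hold the short CRE motif, as do those of FOSB and NR4A3, which makes 6 of 8 genes, against 21.2% of 35116 RefSeq promoters. EGR1 is the only one of the 8 with a CArG box, at -105 to -96 and again at -83 to -74 from the start, and 1.16% of all promoters hold one. Its EGR site, a match to its own factor's motif, lies at -198 to -190 (8.41% of promoters). No window of the 8 genes holds the AP-1 site TGANTCA (6.57% of promoters) or the full CRE TGACGTCA (1.65%). Only 1 window, of ATF3, holds the NR4A site AAAGGTCA (1.04%). ATF3 and NR4A1 have more than 1 window each. A gene was counted if any of its windows held a match, while the percentages are per promoter. The windows are short, and sites further from the start were not searched.

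The 7 tested genes did not move as a block. NR4A2 spanned the widest range, from a log2 value of 3.27 to 12.27, and JUN the narrowest, from 9.72 to 11.02. FOS lay between 2.74 and 7.60, ATF3 between 4.58 and 8.06, EGR1 between 8.39 and 11.79, FOSL1 between 3.80 and 8.18 and JUNB between 4.46 and 7.98. FOSB stayed between 3.0 and 3.83 on all 38 arrays, close to the array medians, and NR4A1 between 3.91 and 5.24 at its brightest probe set. NR4A3 had its highest group mean in confluent vector cells, at 4.40 and 5.26, with 4.69 and 4.18 in confluent shp130 cells, against 4.01 and 3.63 in growing vector cells and 3.95 and 3.85 in growing shp130 cells, but was not tested.

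**Figure D1:**
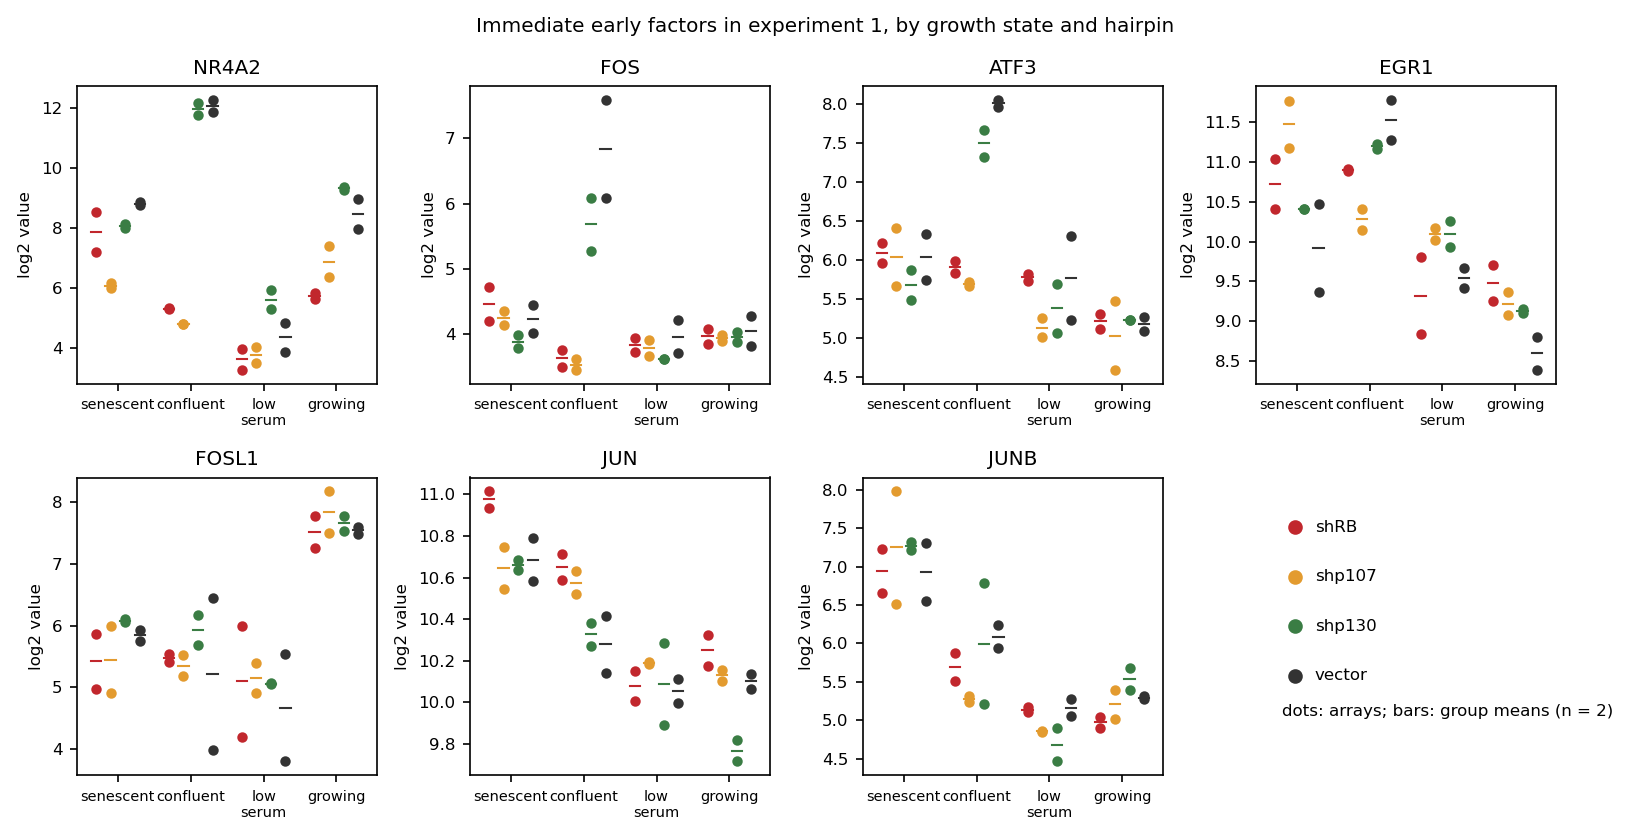
Log2 values (vertical axis) of the 7 tested genes on the 32 arrays of experiment 1, by growth state and hairpin, with dots for arrays and bars for means of 2 arrays. NR4A2, FOS and ATF3 stand highest in confluent vector and shp130 cells, FOSL1 is highest in growing cells, and JUN and JUNB are high in senescent cells.

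Confluent vector cells had higher NR4A2, EGR1, ATF3 and FOS and lower FOSL1 than growing vector cells. That is 5 of the 7 tested genes called at an adjusted p under 0.05, where 25.1% of all genes tested were called, or 4 of the 6 other than FOS. NR4A2, an orphan receptor gene, had log2 values of 11.86 and 12.27 in confluent vector cells, against 8.96 and 7.97 in growing vector cells. This is a change of 3.59 ± 0.41 (log2 change ± SE, limma, n = 2 per group, as for all changes below), 12.1-fold, with an adjusted p of 2.51e-06. FOS read 6.08 and 7.60 in confluent vector cells, against 4.27 and 3.82 in growing vector cells, so the 2 confluent arrays were far apart and yet both above the growing arrays (2.79 ± 0.34, adjusted p = 6.34e-06, or 1.55e-05 over all genes with no filter). ATF3, the stress-induced repressor gene, had 8.06 and 7.96 in confluent and 5.27 and 5.08 in growing vector cells (2.84 ± 0.33, adjusted p = 2.73e-06). EGR1 had 11.79 and 11.28 in confluent and 8.39 and 8.80 in growing vector cells (2.94 ± 0.33, adjusted p = 2.16e-06). None of these 4 genes had overlapping groups, and each kept its call with any 1 of the 4 arrays left out. A bulk measurement cannot tell apart more expressing cells and more RNA per cell.

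FOSL1 ran the other way, at 6.45 and 3.98 in confluent against 7.49 and 7.59 in growing vector cells (-2.33 ± 0.63, adjusted p = 0.00949). Its confluent arrays lay far apart, and leaving out confluent vector replicate 2 (-1.09, adjusted p = 0.23) or growing vector replicate 2 (adjusted p = 0.071) ended the call. JUN, at 10.42 and 10.14 in confluent against 10.07 and 10.14 in growing vector cells, and JUNB, at 6.23 and 5.94 against 5.27 and 5.32, were not called (adjusted p = 0.461 and 0.164), although their groups did not overlap. Against low-serum vector cells, the same 4 genes were higher at confluence, which is 4 of 7 called where 21.3% of all genes were: NR4A2 by 7.71 ± 0.41, FOS by 2.88 ± 0.34, ATF3 by 2.24 ± 0.33 and EGR1 by 1.99 ± 0.33. NR4A2 (4.83 and 3.87) and FOS (4.22 and 3.70) were below 5 in low-serum vector cells, nearer the array medians, so these sizes are not read as folds.

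Cells with shp130 went the same way at confluence, with 5 of 7 genes called against growing shp130 cells (18.6% of all genes). NR4A2 had 12.16 and 11.76 in confluent and 9.26 and 9.36 in growing shp130 cells (2.65 ± 0.41, adjusted p = 0.000111). FOS had 6.09 and 5.27 against 3.87 and 4.03 (1.73 ± 0.34), ATF3 7.68 and 7.33 against 5.23 and 5.23 (2.27 ± 0.33), and EGR1 11.16 and 11.23 against 9.15 and 9.11 (2.07 ± 0.33). JUN rose by 0.56 ± 0.16 (adjusted p = 0.0211), with 10.27 and 10.38 against 9.72 and 9.82, a call lost with any 1 array left out (adjusted p from 0.056 to 0.142) and not made at the other 3 JUN probe sets. In shRB cells only EGR1 (1.42 ± 0.33, adjusted p = 0.00803) and FOSL1 (-2.04 ± 0.63, adjusted p = 0.0404) were called at confluence, 2 of 7 where 11.1% of all genes were. Neither held when growing shRB replicate 1 (adjusted p = 0.106 for EGR1 and 0.237 for FOSL1) or confluent shRB replicate 1 (0.0674 and 0.167) was left out, and FOSL1 was also lost without either second replicate and after quantile normalization (adjusted p = 0.055) or with no filter (0.0791). In shp107 cells NR4A2 fell at confluence, with 4.81 and 4.81 in confluent against 6.36 and 7.38 in growing shp107 cells (-2.06 ± 0.41, adjusted p = 0.00329, or 0.111 without growing shp107 replicate 2), and was not called at its dimmest probe set (-0.77 ± 0.40, adjusted p = 0.251). FOSL1 fell there too (-2.49 ± 0.63, adjusted p = 0.0169, or 0.199 without growing shp107 replicate 2, 0.0777 without confluent shp107 replicate 1 and 0.123 without confluent shp107 replicate 2), 2 of 7 where 8.15% of all genes were called.

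**Figure D2:**
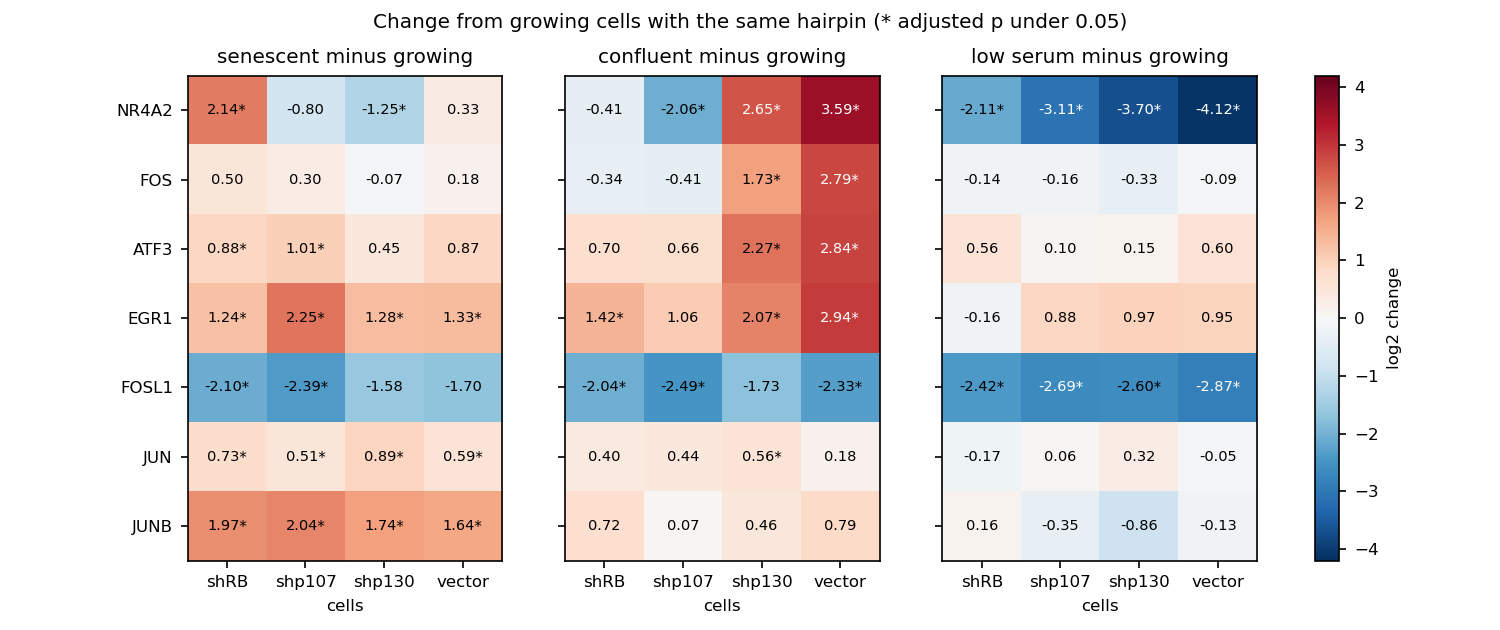
Log2 change of each of the 7 tested genes from growing cells with the same hairpin, for senescent, confluent and low-serum cells (panels) in shRB, shp107, shp130 and vector cells (columns), with red for higher, blue for lower and an asterisk for an adjusted p under 0.05. In the confluent panel, NR4A2, FOS and ATF3 are red and called in shp130 and vector cells and not in shRB or shp107 cells, while FOSL1 is blue in every column of all 3 panels.

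NR4A2, FOS and ATF3 were lower in confluent shRB cells than in confluent vector cells, 3 of 7 genes called (17.5% of all genes). NR4A2 had 5.29 and 5.33 in confluent shRB cells, against 11.86 and 12.27 in confluent vector cells, a change of -6.75 ± 0.41 (108-fold lower, adjusted p = 1.69e-10). FOS had 3.76 and 3.49, against 6.08 and 7.60 in vector cells (-3.21 ± 0.34, adjusted p = 1.27e-06, or 3.59e-06 with no filter), and ATF3 5.99 and 5.84, against 8.06 and 7.96 (-2.10 ± 0.33, adjusted p = 0.000108). In confluent cells labelled shp107, whose RBL1 level does not check the label, NR4A2, with both arrays at 4.81, had a change of -7.25 ± 0.41, and FOS, at 3.45 and 3.62, had a change of -3.31 ± 0.34. ATF3, at 5.66 and 5.71, changed by -2.32 ± 0.33 and EGR1, at 10.15 and 10.41, by -1.25 ± 0.33, which made 4 of 7 genes called (13.5% of all genes). The EGR1 call was lost without confluent vector replicate 1 (adjusted p = 0.139) or confluent shp107 replicate 1 (adjusted p = 0.11) and with array weights (0.056), and EGR1 in shRB cells, at 10.91 and 10.89, was not called (-0.64 ± 0.33). FOS in both hairpin groups and NR4A2 in shp107 cells were below 5, nearer the array medians, so these log2 differences are not read as folds, and FOS was tested at all through the confluent vector and shp130 arrays. With shp130 none of the 7 genes was called by limma against vector at confluence (0.0235% of all genes), and 1 had an unadjusted p under 0.05, FOS, at 6.09 and 5.27 in shp130 cells against 6.08 and 7.60 in vector cells (-1.16 ± 0.34, adjusted p = 0.533). NR4A2 differed there by -0.10 ± 0.41.

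NR4A2 was already lower in growing shRB than in growing vector cells, so the change from growing to confluent cells was also compared between hairpin and vector cells. The confluent change of NR4A2 was lower by 4.01 ± 0.58 in shRB than in vector cells (adjusted p = 0.000248) and by 5.65 ± 0.58 in shp107 cells (adjusted p = 2.48e-06). For FOS the differences were -3.13 ± 0.49 (adjusted p = 0.000569) and -3.20 ± 0.49 (adjusted p = 0.000392), and for ATF3 -2.13 ± 0.46 (adjusted p = 0.013) and -2.18 ± 0.46 (adjusted p = 0.0088). EGR1 differed in shp107 cells (-1.88 ± 0.47, adjusted p = 0.0269) and was not called in shRB cells (-1.52 ± 0.47, adjusted p = 0.0914). That is 3 of 7 genes called for shRB (2.55% of all genes) and 4 of 7 for shp107 (3.35%). FOS and NR4A2 kept these calls with any 1 of the 8 arrays left out, and FOS with no filter (adjusted p = 0.00127 and 0.000867). ATF3 lost both without growing vector replicate 2 (adjusted p = 0.0759 for shRB and 0.0513 for shp107), one without growing shRB replicate 1 (0.0619) or with the mean of its probe sets (0.0628) and the other without growing shp107 replicate 1 (0.0587). EGR1 lost its call in 7 of 8 such fits, with adjusted p up to 0.112, and at its middle probe set (-1.38 ± 0.87, adjusted p = 0.58). For shp130 none of the 7 differences was called by limma (0.0117% of all genes), and the 1 with an unadjusted p under 0.05 was again FOS (-1.06 ± 0.49). All of these comparisons share the vector arrays.

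Probe sets of one gene were also tested apart, in a fit over 13847 probe sets that was added after the data were seen. All 3 NR4A2 probe sets rose at confluence in vector cells, by 3.59, 3.75 and 4.13, and were lower in shRB than in vector cells at confluence by 6.75, 6.90 and 5.30. EGR1 probe sets disagreed in size. In confluent shRB against confluent vector cells, the dimmest of its 3 probe sets changed by -2.51 ± 0.32 (adjusted p = 1.01e-05), with 6.84 and 7.23 against 9.94 and 9.15, where the brightest changed by -0.64 and the other by -0.94, neither called. For shp107 the same probe set changed by -2.47 (adjusted p = 1.24e-05) and the middle one, not called, by -1.03 (adjusted p = 0.327), so the EGR1 difference at confluence depends on which is read. NR4A1, dim at its brightest probe set, passed the filter at its second probe set through 1 confluent vector and 1 confluent shp130 array alone. This probe set had 3.70 and 3.51 in confluent shRB cells and 3.68 and 3.36 in confluent shp107 cells, against 4.51 and 5.05 in confluent vector cells, which is a description, since the filter selected on the vector level. The 4 JUN probe sets changed by 0.18 to 0.79 at confluence in vector cells, and none was called. ATF3 was tested at its brightest probe set alone, since its other 2 stayed below 5 on every array. In confluent vector cells these had 3.89 and 3.84, and 3.23 and 3.27. In growing vector cells they had 3.73 and 3.64, and 3.23 and 3.14, so the ATF3 results rest on 1 probe set.

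**Figure D3:**
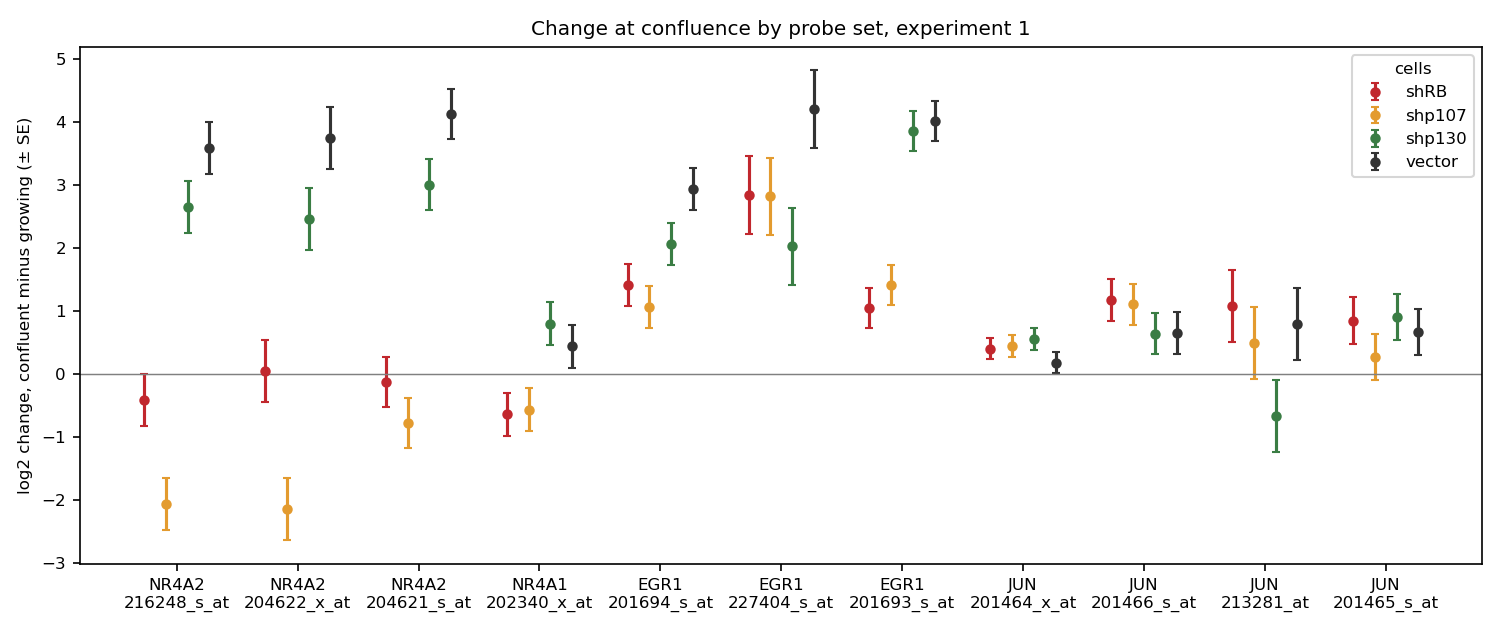
Log2 change at confluence (confluent minus growing, ± SE) for each tested probe set of NR4A2, NR4A1, EGR1 and JUN, in shRB, shp107, shp130 and vector cells. The 3 NR4A2 probe sets place shp130 and vector cells above 2 and shRB and shp107 cells near or below 0, while the dimmest EGR1 probe set (the last of the 3) separates the same pairs of cells more widely than the other EGR1 probe sets.

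Related genes were counted at confluence from lists. Of 24 other immediate early genes tested, 11 were higher and 2 lower in confluent than in growing vector cells, with a median change of 0.75, where 25.1% of all genes were called. Leaving out growing vector replicate 1 gave 7 and 3, leaving out growing vector replicate 2 gave 5 and 2, and leaving out confluent vector replicate 1 gave 9 and 5. A dim listed gene such as SIK1 or MMP10 can, like FOS, have passed the filter through the groups where it is high. Some listed genes were below 5 in a compared group, so the sizes of their changes are not read as folds. Examples are PTGS2 (4.32) and MMP3 (3.97) in confluent shRB cells and IL6 (4.72) in low-serum vector cells. In growing vector cells MMP10 (3.08) and DUSP4 (4.28) were below 5. The prostaglandin synthase gene PTGS2 rose by 4.69 ± 0.73 (adjusted p = 7.9e-05), the kinase gene SIK1 by 2.79 ± 0.78 (adjusted p = 0.0115) and the pseudokinase gene TRIB1 by 1.97 ± 0.45, while the zinc finger factor gene KLF2 fell by 2.04 ± 0.26. In shp130 cells 5 were higher and 2 lower (median 0.51), or 3 and 2 without growing shp130 replicate 2, in shRB cells 1 and 4 (median -0.12), and in shp107 cells 0 and 4 (median -0.11). Of all genes tested, 18.6% were called at confluence in shp130, 11.1% in shRB and 8.15% in shp107 cells. Against confluent vector cells, 17.5% of all genes were called with shRB and 13.5% with shp107. In confluent shRB against confluent vector cells, 11 of the 24 were lower and none higher (median -0.85), among them PTGS2 by -7.33 ± 0.73 and the MAP kinase phosphatase gene DUSP1 by -1.70 ± 0.19. These counts were 7 lower and 1 higher without confluent shRB replicate 2, and 8 and 2 without confluent vector replicate 1. With shp107, 11 were lower and 2 higher, or 6 and 1 without confluent shp107 replicate 1.

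Of 19 AP-1 and EGR partner genes, 9 were higher and 1 lower in confluent vector cells, where 25.1% of all genes were called. This count was not repeated with an array left out. Among the higher were CREB5 (2.17 ± 0.37), EGR3 (1.33 ± 0.29), FOSL2 (1.23 ± 0.36) and the EGR corepressor gene NAB1 (1.14 ± 0.30). Of the 9, EGR3, FOSL2, MAFF and JUND are also among the 24 above and are counted in both lists. Of 15 AP-1 target genes, 6 were higher and 2 lower, or 3 and 1 without growing vector replicate 2 and 3 and 2 without confluent vector replicate 1. The stromelysin gene MMP3 rose by 4.53 ± 0.64 and the cytokine gene IL1B by 4.34 ± 0.78. Of all genes tested, 17.5% were called between confluent shRB and confluent vector cells. In confluent shRB against confluent vector cells, 8 of these 15 were lower and 1 higher, MMP3 by -8.22 ± 0.64 and IL6 by -4.28 ± 0.83, or 4 lower and 0 higher without confluent vector replicate 1 or without either confluent shRB replicate.

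**Figure D4:**
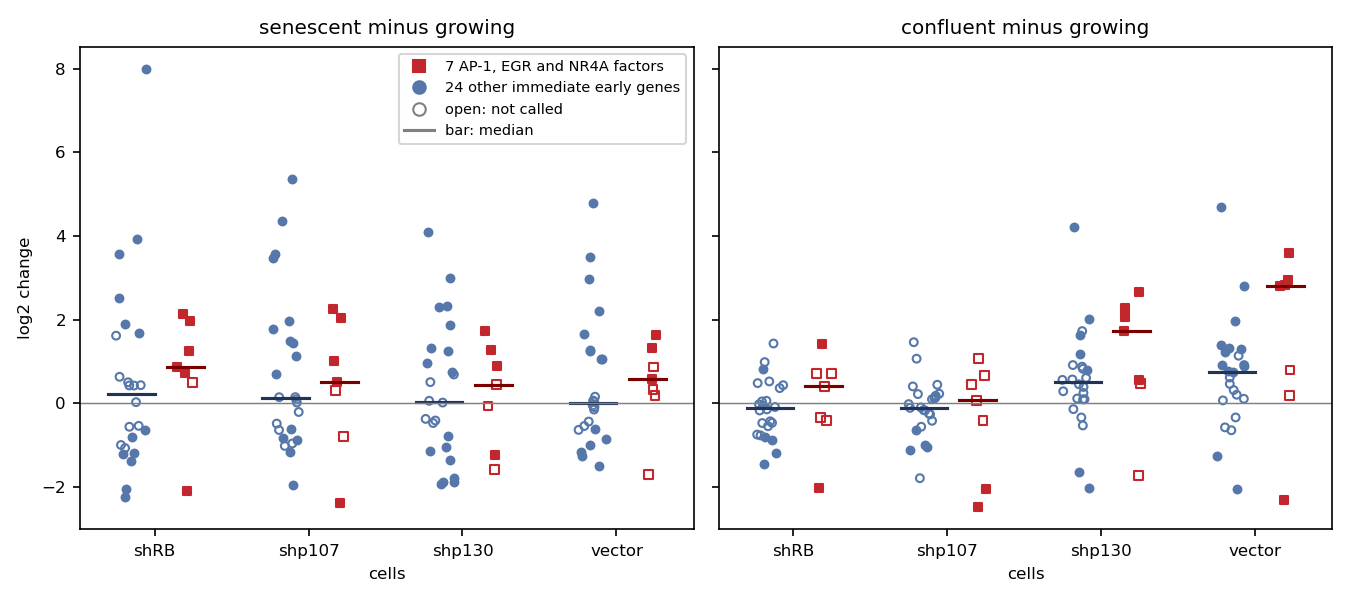
Log2 change from growing cells in senescent and confluent cells (panels) for the 7 tested AP-1, EGR and NR4A genes (red squares) and 24 other immediate early genes (blue circles), by hairpin, with filled marks for called genes and bars for medians. At confluence the median of the 24 genes is 0.75 in vector and 0.51 in shp130 cells, and below 0 in shRB and shp107 cells.

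NR4A2 and FOSL1 were lower in low-serum than in growing cells, and the other 5 tested genes were not called. That is 2 of 7 in vector cells (13.0% of all genes called), and again 2 of 7 in shRB (6.43%), shp107 (6.80%) and shp130 cells (9.80%). NR4A2 had 4.83 and 3.87 in low-serum and 8.96 and 7.97 in growing vector cells. Its change was -2.11 in shRB, -3.11 in shp107, -3.70 in shp130 and -4.12 in vector cells (SE 0.41), with adjusted p between 1.26e-06 in vector and 0.00237 in shRB cells, and the call in shRB cells was lost without low serum shRB replicate 1 (adjusted p = 0.0513) and was not made at the other 2 probe sets (adjusted p = 0.0928 and 0.524). In shp107 cells the dimmest NR4A2 probe set was not called either (-0.92 ± 0.40, adjusted p = 0.212), while all 3 were called in shp130 and vector cells. FOSL1 had 3.80 and 5.55 in low-serum and 7.49 and 7.59 in growing vector cells, with changes of -2.42 in shRB, -2.69 in shp107, -2.60 in shp130 and -2.87 in vector cells (SE 0.63, adjusted p between 0.0044 and 0.0225). Its calls were less firm. They were lost without low serum vector replicate 1 (adjusted p = 0.125), without low serum shRB replicate 1 (0.275) or either growing shRB replicate (0.204 and 0.0671), without growing shp107 replicate 2 (0.137) or low serum shp107 replicate 1 (0.127), and with any shp130 array left out (0.0526 to 0.0794). EGR1 read 9.42 and 9.67 in low-serum against 8.39 and 8.80 in growing vector cells without being called (0.95 ± 0.33). FOS, at 4.22 and 3.70 against 4.27 and 3.82, gave overlapping groups. None of the 7 low-serum changes differed by limma between a hairpin and vector, where 0%, 0% and 0.0117% of all genes did for shRB, shp107 and shp130, and 2, 0 and 0 had an unadjusted p under 0.05, the 2 being NR4A2 (2.01 ± 0.58) and EGR1 (-1.11 ± 0.47) with shRB.

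Of the 24 other immediate early genes, 4 were lower and none higher in low-serum vector cells, close to the 13.0% called among all genes: PTGS2 (-3.29 ± 0.73), IER2 (-1.21 ± 0.21), NFIL3 (-1.11 ± 0.17) and DUSP1 (-0.85 ± 0.19). Of 15 AP-1 targets, 10 were lower and none higher, with a median change of -1.80, but the number lower was 3 on leaving out growing vector replicate 1, 5 without the first low serum vector array and 6 without the second. IL6 fell by 4.49 ± 0.83 and the collagenase gene MMP1 by 3.75 ± 0.39.

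Senescent cells had higher JUNB, JUN and EGR1 than growing cells in every hairpin group of experiment 1. In vector cells those 3 of 7 genes were called, where 25.4% of all genes were. JUNB had 6.56 and 7.30 in senescent and 5.27 and 5.32 in growing vector cells (1.64 ± 0.41, adjusted p = 0.00489). JUN, the main AP-1 partner, had 10.58 and 10.79 against 10.07 and 10.14 (0.59 ± 0.16, adjusted p = 0.0112), and EGR1 9.36 and 10.48 against 8.39 and 8.80 (1.33 ± 0.33, adjusted p = 0.00497). All 3 groups stood apart, yet all 3 calls were lost without senescent vector replicate 2 (adjusted p = 0.0858 for JUNB, 0.111 for JUN and 0.155 for EGR1), and those of JUN and EGR1 without growing vector replicate 1 (0.0732 and 0.0652). The other 2 EGR1 probe sets did not call the change (1.63 ± 0.61, adjusted p = 0.0593, and 0.47 ± 0.32, adjusted p = 0.323), nor did the 2 dimmer of the 4 JUN probe sets (adjusted p = 0.264 and 0.371). FOS, at 4.01 and 4.45 in senescent against 4.27 and 3.82 in growing vector cells, overlapped, as did NR4A2, at 8.74 and 8.85 against 8.96 and 7.97. FOSL1, at 5.93 and 5.76 against 7.49 and 7.59, was not called (-1.70 ± 0.63, adjusted p = 0.0521).

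The hairpin cells gave further calls in senescence, 6 of 7 in shRB (32.8% of all genes), 5 of 7 in shp107 (38.2%) and 4 of 7 in shp130 cells (32.7%), shares to be read against those high backgrounds. JUNB rose by 1.97 in shRB, 2.04 in shp107 and 1.74 in shp130 cells (SE 0.41), and JUN by 0.73, 0.51 and 0.89 (SE 0.16). JUNB in all 3 groups, and JUN in shRB and shp130 cells, kept the call with any 1 array left out, while JUN in shp107 cells lost it in 3 of 4 such fits (adjusted p from 0.0537 to 0.0934), with array weights (0.0988) and at 1 of its 3 other probe sets (0.226). EGR1 rose by 1.24 in shRB, 2.25 in shp107 and 1.28 in shp130 cells (SE 0.33), lost in shRB cells without growing shRB replicate 1 (adjusted p = 0.0795) or senescent shRB replicate 2 (0.101), and not made at the middle EGR1 probe set in shp107 cells (0.0902). FOSL1 changed by -2.10 ± 0.63 in shRB and -2.39 ± 0.63 in shp107 cells. Each call was lost on leaving out 1 of 2 arrays, namely growing shRB replicate 1 (adjusted p = 0.101), senescent shRB replicate 2 (0.134), growing shp107 replicate 2 (0.0528) or senescent shp107 replicate 2 (0.0832). ATF3 rose by 0.88 in shRB and 1.01 in shp107 cells, the first lost with any array left out and the second without growing shp107 replicate 2 (adjusted p = 0.274) or senescent shp107 replicate 1 (0.203) and with array weights (0.114). NR4A2 was split, at 7.20 and 8.53 in senescent against 5.83 and 5.62 in growing shRB cells (2.14 ± 0.41, adjusted p = 0.000351), and at 8.0 and 8.12 in senescent against 9.26 and 9.36 in growing shp130 cells (-1.25 ± 0.41, adjusted p = 0.0231, lost with any array left out and at the other 2 probe sets). None of the 7 senescent changes differed by limma between hairpin and vector cells, where 1.99% of genes did for shRB, 1.17% for shp107 and 0.164% for shp130. At an unadjusted p under 0.05, 1, 0 and 1 of the 7 did, NR4A2 with shRB (1.81 ± 0.58, adjusted p = 0.136) and with shp130 (-1.58 ± 0.58, adjusted p = 0.416).

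The 7 tested genes were also compared between senescent and confluent vector cells. Those that rose with confluence had been read as high on these same confluent arrays, so a lower level in senescence is partly built in. NR4A2 (-3.26 ± 0.41), FOS (-2.61 ± 0.34), ATF3 (-1.97 ± 0.33) and EGR1 (-1.62 ± 0.33) were lower in senescent than in confluent vector cells, 4 of 7 called where 33.4% of all genes were. FOS, at 4.01 and 4.45 in senescent vector cells, was tested through the confluent vector and shp130 arrays alone. Its change is not read as a fold. Against low-serum vector cells, senescent vector cells had higher NR4A2 (4.45 ± 0.41), JUNB (1.77 ± 0.41) and JUN (0.63 ± 0.16), 3 of 7 where 38.9% were, with JUN lost without senescent vector replicate 2 (adjusted p = 0.053) and at 2 of its other probe sets (0.194 and 0.982). In vector cells the order of NR4A2 was therefore confluent, then senescent and growing, whose arrays overlap, then low serum.

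ERK pathway output genes moved with senescence, 10 of 13 higher and none lower in senescent vector cells, with a median change of 1.65, against 4 of 13 higher and none lower at confluence (1 higher without growing vector replicate 2, 2 higher and 3 lower without confluent vector replicate 1, and 7 higher and 1 lower without confluent vector replicate 2). Of all genes tested, 25.4% were called in senescent and 25.1% in confluent vector cells, each against growing vector cells. The ERK phosphatase gene DUSP4 rose by 3.86 ± 0.37 and the feedback inhibitor gene SPRY2 by 2.92 ± 0.43. In these rises the part of ras and that of senescence cannot be told apart. Of the 24 other immediate early genes, 9 were higher and 6 lower in senescent vector cells, TRIB1 by 3.50 ± 0.45 and EGR3 by 2.19 ± 0.29 among the higher. Of 15 AP-1 targets, 7 were higher and 1 lower, MMP10 by 6.94 ± 0.65 and IL1B by 6.33 ± 0.78, with 3 higher on leaving out growing vector replicate 2, and 4 higher and none lower on leaving out senescent vector replicate 1. None was lower without growing vector replicate 1 or senescent vector replicate 2 either. The AP-1 repressor gene JDP2 fell by 2.21 ± 0.32 and FOSL2 by 1.50 ± 0.36.

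In growing and low-serum cells, few genes of any kind were called between hairpin and vector cells. In growing cells, NR4A2 was lower with shRB, at 5.83 and 5.62 in shRB against 8.96 and 7.97 in vector cells (-2.74 ± 0.41, adjusted p = 0.00562), 1 of 7 genes where 0.188% of all genes were called. Leaving out growing vector replicate 1 (adjusted p = 0.168) ended the call, as did leaving out either growing shRB replicate (0.0521 and 0.0742). At the dimmest NR4A2 probe set the change was -1.05 ± 0.40 and was not called (adjusted p = 0.604). None of the 7 was called by limma in growing cells with shp107 (0% of all genes) or shp130 (0.0587%), or in low serum with shRB (0.0822%), shp107 (0.0352%) or shp130 (0.270%). At an unadjusted p under 0.05 these counts were 1 and 0 in growing cells and 0, 0 and 1 in low serum. NR4A2 in growing shp107 cells, at 6.36 and 7.38, lay below both growing vector arrays.

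In senescent shp107 cells NR4A2, at 6.15 and 5.99, was lower than in senescent vector cells, at 8.74 and 8.85 (-2.73 ± 0.41, adjusted p = 0.000223). EGR1 was higher, at 11.77 and 11.18 against 9.36 and 10.48 (1.55 ± 0.33, adjusted p = 0.00522, or 0.145 without senescent vector replicate 1 and 0.0519 with array weights). This rise was also called at the dimmest EGR1 probe set (2.24 ± 0.32, adjusted p = 0.000173) but not at the middle one (0.08 ± 0.61, adjusted p = 0.962). That is 2 of 7 genes called, where 7.84% of all genes were. With shRB none of the 7 was called by limma in senescent cells (9.75% of all genes) and 2 had an unadjusted p under 0.05, EGR1 (0.81 ± 0.33) and NR4A2 (-0.93 ± 0.41). Read apart, the EGR1 probe sets of middle (2.34 ± 0.61, adjusted p = 0.0182) and lowest brightness (1.22 ± 0.32, adjusted p = 0.0169) were called higher with shRB. With shp130 none of the 7 was called (1.67% of all genes) and none had an unadjusted p under 0.05, while the dimmest EGR1 probe set was called higher (1.44 ± 0.32, adjusted p = 0.0204).

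In experiment 2, JUNB had 6.68 and 6.70 in senescent and 5.69 and 5.70 in growing vector cells (1.00 ± 0.16, adjusted p = 0.00167), and JUN 10.72 and 10.78 against 10.33 and 10.18 (0.49 ± 0.16, adjusted p = 0.0434). EGR1, at 9.73 and 9.66 in senescent against 10.00 and 9.60 in growing vector cells, was not called (-0.10 ± 0.19). FOSL1 fell by 0.75 ± 0.17 (adjusted p = 0.00743), with 6.20 and 6.21 against 6.98 and 6.94. FOS rose by 0.81 ± 0.18 (adjusted p = 0.00722), but with 2.74 and 2.84 in growing cells, under the array medians, and 3.74 and 3.47 in senescent cells it stayed near background. That is 4 of 7 genes called where 39.2% of all genes were. Leaving out single arrays ended the calls of JUN in 3 of 4 fits (and 1 of its other probe sets did not call it, adjusted p = 0.0955), of FOSL1 without senescent vector replicate 1 (adjusted p = 0.0814) or 2 (0.0792), and of FOS without senescent vector replicate 1 (0.11). JUNB kept its call. With all 38 arrays in 1 limma fit, FOS (adjusted p = 0.0587) and FOSL1 (0.36) were not called.

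In senescent cells of experiment 2, ATF3 was higher with shRB, at 6.22 and 6.26 in shRB against 5.23 and 5.59 in vector cells (0.83 ± 0.19, adjusted p = 0.0206). FOSL1, at 5.53 and 5.32 against 6.20 and 6.21, was lower (-0.78 ± 0.17, adjusted p = 0.0151), as was NR4A2, at 7.55 and 7.53 against 8.24 and 9.06 (-1.11 ± 0.27, adjusted p = 0.0254). These 3 of 7 calls, where 20.1% of all genes were called, were lost in 4, 3 and 3 of 4 fits with 1 array left out, ATF3 with adjusted p from 0.0577 to 0.22. With all 38 arrays in 1 limma fit, ATF3 (adjusted p = 0.0943), FOSL1 (0.411) and NR4A2 (0.0854) were not called. The mean of the NR4A2 probe sets did not call its change (-0.83, adjusted p = 0.05), nor did the dimmest NR4A2 probe set (-0.36 ± 0.31, adjusted p = 0.427). NR4A2 had the same sign in experiment 1 (-0.93, not called). Senescent shRB against growing vector cells gave higher ATF3 (1.03 ± 0.19), FOS (0.95 ± 0.18) and JUNB (0.96 ± 0.16) and lower FOSL1 (-1.53 ± 0.17), 4 of 7 where 33.5% were called. Experiment 2 has no growing shRB cells, so hairpin and senescence cannot be told apart in this comparison. FOS, at 3.66 and 3.82 against 2.74 and 2.84, stayed near background. With all 38 arrays in 1 limma fit, FOSL1 (adjusted p = 0.0566) and JUNB (0.0671) were not called. The differences between the experiments were tested in 1 fit of all 38 arrays. None of the 7 was called by limma for the senescent change (1.50% of all genes) or the shRB effect (1.16%), with 1 unadjusted p under 0.05 each. They were EGR1 for senescence, at 1.43 ± 0.44 lower in experiment 2 (adjusted p = 0.114), and JUN for shRB (-0.49 ± 0.22, adjusted p = 0.314).

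**Figure D5:**
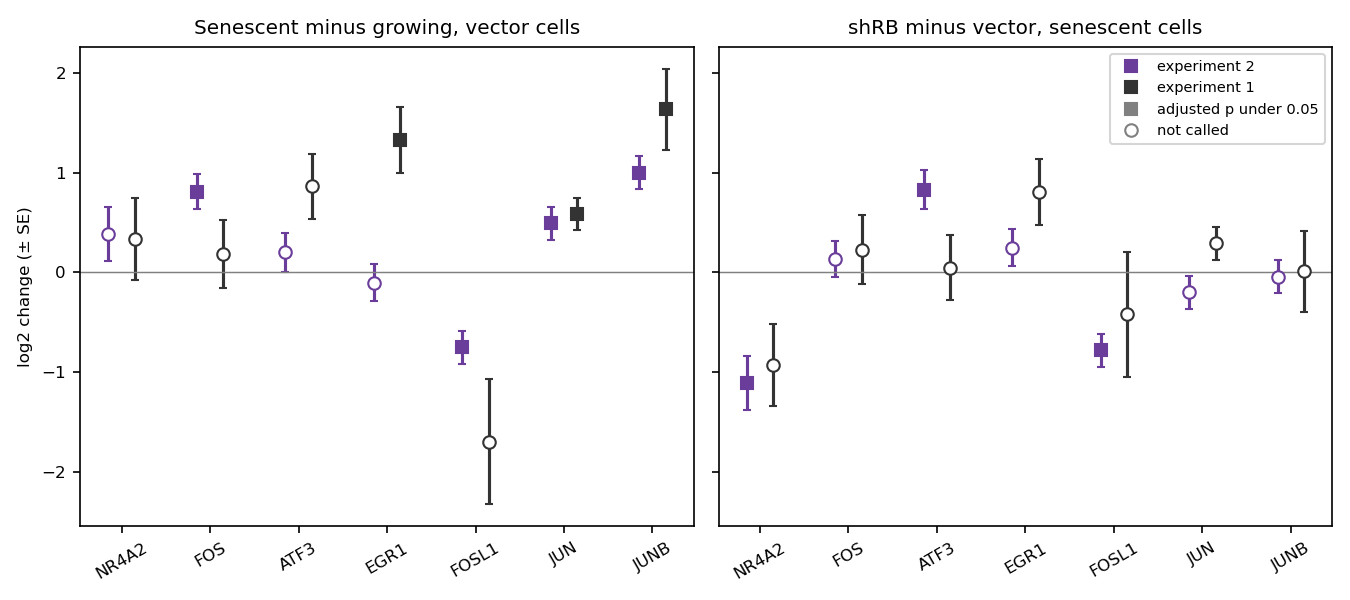
Log2 change (± SE) of the 7 tested genes in experiment 2 (purple) and experiment 1 (black), for senescent minus growing vector cells (left) and for shRB minus vector in senescent cells (right), with filled squares for an adjusted p under 0.05. JUN and JUNB rose with senescence in both experiments, and EGR1 was called higher in experiment 1 alone, a difference that was not called.

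Over the 16 group means of experiment 1, FOS was most like ATF3 among the 7 (Pearson r = 0.90), NR4A2 most like FOS (0.79), EGR1 most like ATF3 (0.74), and JUN and JUNB most like each other (0.73). FOSL1 had no close partner, with 0.29 to NR4A2 and -0.56 to EGR1. The other genes nearest in pattern were GAREM1 for FOS (0.94), ARHGAP6 for ATF3 (0.96), PPTC7 for NR4A2 (0.95), PLK2 for EGR1 (0.92), TRIP13 for FOSL1 (0.93), RGS17 for JUN (0.94) and MME for JUNB (0.97). The hairpin groups share their design, and the sources do not give whether all arrays were normalized in 1 run. These values describe the 16 means only.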

How the data were processed

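RNA of IMR90 cells was hybridised to 38 arrays as biotinylated cRNA made from 1 µg, per the labels' protocols. The authors deposited log2 values, 1 per probe set and array, that the submitters' processing notes credit to GCRMA. The sources used here do not give whether both experiments were normalized in 1 run. In GEO's platform annotation 41091 of 54613 probe sets named 1 gene, 1801 several and 11721 none. A gene was read from its probe set with the highest mean (19775 genes), and no probe set's level was compared with another's.

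Genes above a log2 value of 5 on at least 2 arrays of experiment 1 (8511 genes) were fitted with limma 3.58.1 (R 4.3.3). Every group had its own mean, and the experiments were fitted apart, with 16 and 3 residual degrees of freedom. Benjamini-Hochberg adjustment ran over all 8511 genes of a contrast, and "called" means an adjusted p under 0.05. The fit was tested on simulated data. The low number of arrays, 2 per group, limits the precision. Replicate numbers were not used to pair the groups in the main fit. Same-numbered deviations had a median r of 0.03 over 171 pairs of groups, with a range of -0.376 to 0.625. Of these pairs 121 lay below 0.1. A median near 0 does not show that no groups were paired. Alternatives were quantile normalization, no filter, the mean of a gene's probe sets (keeping the genes of the filter, a choice made after seeing the data), array weights, a replicate block, each array left out, 1 fit of all 38 arrays, and other probe sets. All 10 genes are named, and from each list up to 4 called genes with the largest change per vector or shRB comparison. The genes and lists were chosen with earlier results of these data known. Promoters came from RefSeq (GRCh38.p14).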

Additional observations from a re-analysis of the deposited data

Results flagged for a closer look

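Of the 7 tested genes, 4 changed differently with confluence in hairpin and vector cells, tested as the difference between the confluent minus growing change in hairpin cells and the same change in vector cells. For shRB minus vector this difference was -4.01 for NR4A2, -3.13 for FOS and -2.13 for ATF3. For shp107 minus vector it was -5.65 for NR4A2, -3.20 for FOS, -2.18 for ATF3 and -1.88 for EGR1. Of all genes tested, 2.55% were called for shRB and 3.35% for shp107. Both sets of differences share the confluent and growing vector arrays. The 2 confluent vector arrays lay farther apart than any other replicate pair (SD 0.79), and NR4A2, FOS and ATF3 kept these calls without either of them. RBL1 was too dim to check the shp107 label. FOS passed the brightness filter through the confluent vector and shp130 arrays alone, and with no filter its adjusted p was 0.00127 for shRB and 0.000867 for shp107. The EGR1 difference was not called at its middle probe set (adjusted p = 0.58). EGR1 also lost its call in 7 of the 8 fits with 1 array left out. ATF3 was bright enough to be tested at 1 of its 3 probe sets only. It lost both calls without growing vector replicate 2. The shRB call of ATF3 was also lost without growing shRB replicate 1 and with the mean of its probe sets (limma, adjusted p = 0.0628). Its shp107 call was also lost without growing shp107 replicate 1.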

How the results depend on the processing

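Of 79 calls of single genes, 64 held under quantile normalization, no filter, the mean of probe sets, array weights, the replicate block and 1 fit of all 38 arrays, 45 held with each array left out in turn, and 43 under both. Quantile normalization moved the median of all genes by 0.175 in confluent against growing shRB cells, the largest of 11 shifts over 0.1. The replicate block ended no call and moved no count of called genes by over 1.5 times. With array weights, 4 of the 7 genes were called in low-serum shp130 cells (2 in the report), 4 in confluent shp107 cells (2), 5 in senescent vector cells (3) and 3 in senescent shp107 cells (5), each against growing cells, with 1 for shp107 against vector in senescence (2) and 1 for the senescent change of experiment 2 minus 1 (0). Quantile normalization gave 1 in confluent shRB cells (2) and 4 in confluent shp107 cells (2), and no filter gave 1 in confluent shRB cells. The mean of probe sets gave 5 for shRB against vector at confluence (3), 2 for shRB in senescence (0), 1 for shp130 in senescence (0) and 1 for the shRB effect of experiment 2 minus 1 (0). The fit of all 38 arrays gave 5 for senescent vector cells (3) and, in experiment 2, 2 for senescent against growing vector cells (4), 0 for shRB against vector (3) and 2 for senescent shRB against growing vector cells (4). Other JUN probe sets turned 2 changes round, to -0.66 (adjusted p = 0.478) in confluent against growing shp130 cells, where the report has a called rise, and to 1.49 (adjusted p = 0.0412) for shp130 against vector in senescence. With 1 array left out, the number called against growing cells was 0 to 2 (shRB), 1 to 2 (shp107), 1 to 1 (shp130) and 1 to 3 (vector) in low serum. At confluence it was 0 to 1, 0 to 2, 4 to 5 and 4 to 5 in the same order. In senescence it was 3 to 5, 2 to 5, 3 to 3 and 0 to 4, the 0 being without senescent vector replicate 2. It was 4 to 6 for senescent against confluent, 2 to 4 for senescent against low-serum and 4 to 5 for confluent against low-serum vector cells. Against vector it was 0 to 1 for shRB in growing cells, 3 to 3, 3 to 4 and 0 to 1 for shRB, shp107 and shp130 at confluence, and 0 to 1 and 1 to 2 for shRB and shp107 in senescence. For differences of the confluent change it was 2 to 4, 2 to 4 and 0 to 1, and for that of the senescent change with shRB 0 to 1. In experiment 2 it was 1 to 4 for senescence, 0 to 1 for shRB and 4 to 4 for senescent shRB against growing vector cells, and 0 to 1 for senescence between experiments. The causes of these changes were not tested. FOSB, and NR4A1 and NR4A3 at their brightest probe sets, were mostly below a log2 value of 5, which limits what could be measured for them.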
